A study of Schizosaccharomyces pombe with 2 samples.

Results

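The 10 genes described here encode the core enzymes of the tricarboxylic acid cycle in fission yeast, Schizosaccharomyces pombe, other than succinate dehydrogenase. They were chosen by identifier, with earlier results of these data known, from a table of 5076 genes. All 10 were found, here in the order of the reactions: cit1, aco1, idh1, idh2, kgd1, kgd2, lsc1, lsc2, fum1 and mdh1. Messenger RNA was compared between wild-type cells and cells with a ppr10 deletion, each as 1 library from logarithmic growth. The sources used here do not give the rest of the strain background, the medium or the number of cultures. Ppr10 is a pentatricopeptide repeat protein of mitochondria, of a family that acts on organelle RNA. The submitters were looking for what makes the cells die. With 1 library a group, the spread between cultures is unknown for every difference below, and no p-value can be given.

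The cycle runs in the mitochondrial matrix. It joins acetyl-CoA to oxaloacetate, releases the carbon as carbon dioxide, and passes the electrons to the respiratory chain as NADH and as reduced flavin. Its early steps also make 2-oxoglutarate, the carbon skeleton for glutamate and, in fungi, for lysine, so they serve biosynthesis as well as respiration. In budding yeast, Saccharomyces cerevisiae, the genes of the steps from citrate synthase to isocitrate dehydrogenase are known to be controlled apart from the later ones when respiration is impaired.

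To the nearest 1000, 17053000 reads mapped uniquely to genes in wild-type cells and 16885000 in cells without ppr10. The deleted gene checked the labels: ppr10 (SPBC106.19) was left with 12 reads in the deletion against 1879 in the wild type, a ratio of 0.00645 (95% interval 0.00333 to 0.0113). Levels are RPKM, reads scaled to the listed gene length and to the size of the library, as deposited by the authors. Ratios are deletion over wild type, with 95% intervals (exact, Clopper-Pearson) that rest on the reads and cover counting error only. Log2 differences are those of RPKM plus a pseudocount of 1. A gene was called lower where its log2 difference reached 2-fold or, by a weaker rule, 1.5-fold, among the 4986 genes whose mean RPKM was 1 or more (the tested genes). All 10 cycle genes passed that level, with means from 90.9 to 303 RPKM. The 1.5-fold rule was set with earlier results of these data known.

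The cycle genes differed by less than 2-fold and not all in 1 direction. Those for the steps from 2-oxoglutarate to oxaloacetate were lower in the deletion library, most of all kgd2 at 0.563 and fum1 at 0.589 of the wild-type level. Those for the NAD-dependent isocitrate dehydrogenase, idh1 and idh2, were higher, at 1.16 and 1.23. Of the other genes before 2-oxoglutarate, cit1 was nearly level at 1.02. The other, aco1, was lower at 0.799, below kgd1 at 0.846 and lsc1 at 0.905. The division at 2-oxoglutarate was drawn after the values were seen. None of the 10 was lower by 2-fold, where 1.14% of all tested genes were, and none was higher by 2-fold, where 2.79% were. By the 1.5-fold rule 2 of the 10 were lower, kgd2 and fum1, beside 4.49% of all tested genes, and none was higher, beside 7.94%. Nearest to that rule from outside, lsc2 had a log2 difference of −0.57, which passed after scaling to the median gene. The next was mdh1 at −0.50, against −0.76 for fum1 inside the rule.

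Of the 10 log2 differences 3 were positive and 7 negative, beside 2845 and 2141 over the 4986 tested genes. The median of the 10 was −0.28, beside 0.05 for all tested genes. Well-expressed genes as a class did not share that value. Over the 1471 genes whose mean RPKM lay within the range of the cycle genes, the median was −0.005. Of these 1471 genes 745 had a negative difference, and 4.62% were lower by 1.5-fold. Summed over the 10 genes the wild type had 52518 reads against 43036 in the deletion, a ratio of 0.828 (0.817 to 0.838). In bulk cultures, fewer cells that express a gene and less RNA per cell cannot be told apart.

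**Figure D1:**
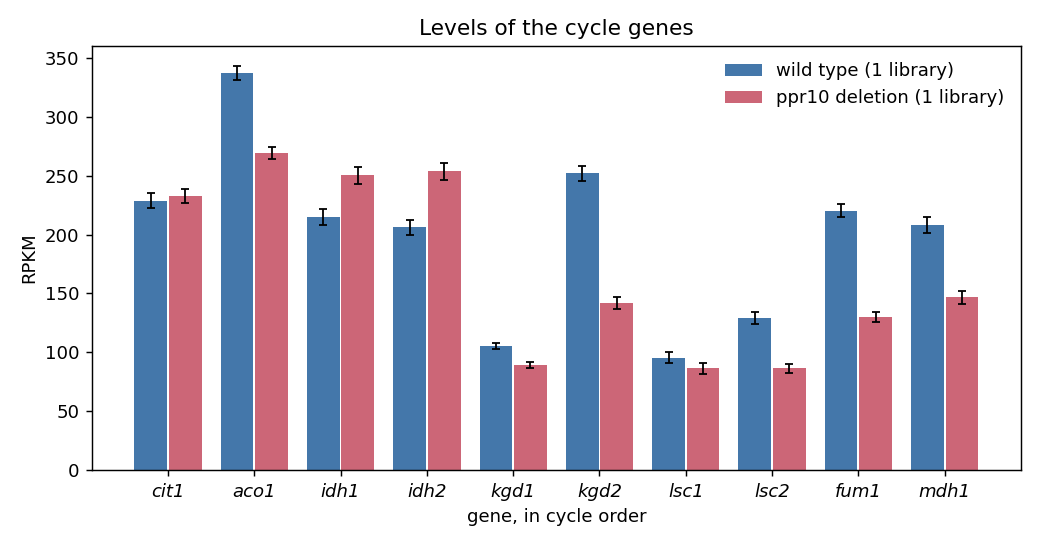
RPKM of the 10 cycle genes, in the order of the reactions, in the wild-type library and in the ppr10 deletion library, with 1 library a group; error bars are exact Poisson 95% intervals of the reads and cover counting error only. The bars of cit1 are nearly level (228.8 and 232.6), idh1 and idh2 stand higher in the deletion, and kgd2 stands at 251.9 in the wild type against 141.8.

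Citrate synthase, encoded by cit1 (SPAC6C3.04, chromosome I), joins acetyl-CoA to oxaloacetate and opens the cycle. Its level was 228.8 RPKM in the wild type, from 5666 reads, and 232.6 RPKM in the deletion, from 5702 reads. The ratio of 1.02 (0.979 to 1.05) includes 1, so no difference was detectable at this depth, and the sign of its log2 difference depends on the scaling: it was 0.02 as deposited and −0.03 after scaling to the median gene.

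Aconitase, encoded by aco1 (SPAC24C9.06c, chromosome I), turns citrate into isocitrate with an iron-sulphur cluster. It had the highest level of the 10 in either library, at 337.2 RPKM in the wild type and 269.5 RPKM in the deletion. The ratio was 0.799 (0.779 to 0.820), which made aco1 the only one of the 4 genes before 2-oxoglutarate that was lower in the deletion under every scaling tried.

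NAD-dependent isocitrate dehydrogenase makes 2-oxoglutarate and NADH, and is built from the products of idh1 (SPAC11G7.03, chromosome I) and idh2 (SPBC902.05c, chromosome II). The level of idh1 was 215.2 RPKM in the wild type and 250.3 RPKM in the deletion, a ratio of 1.16 (1.11 to 1.21). The level of idh2 was 206.0 RPKM in the wild type and 253.7 RPKM in the deletion, a ratio of 1.23 (1.18 to 1.28). These were the 2 cycle genes whose interval lay wholly above 1. Their log2 differences, 0.22 and 0.30, are modest among all genes: 70.9% and 78.4% of tested genes had a lower value.

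The 2-oxoglutarate dehydrogenase complex, which makes succinyl-CoA, has a decarboxylase subunit encoded by kgd1 (SPBC3H7.03c, chromosome II) and a core succinyltransferase subunit, carrying lipoate, encoded by kgd2 (SPBC776.15c, chromosome II). The level of kgd1 was 105.5 RPKM in the wild type and 89.25 RPKM in the deletion, a ratio of 0.846 (0.813 to 0.880). The level of kgd2 was 251.9 RPKM in the wild type and 141.8 RPKM in the deletion, a ratio of 0.563 (0.539 to 0.588), the lowest of the 10. The log2 difference of kgd2 was −0.82, and 1.72% of all tested genes had a lower one.

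Succinyl-CoA ligase forms succinate and a nucleoside triphosphate, and its alpha and beta subunits come from lsc1 (SPAC16E8.17c, chromosome I) and lsc2 (SPCC1620.08, chromosome III). The level of lsc1 was 95.5 RPKM in the wild type and 86.4 RPKM in the deletion, a ratio of 0.905 (0.842 to 0.972). The level of lsc2 was 129.1 RPKM in the wild type and 86.42 RPKM in the deletion, a ratio of 0.669 (0.631 to 0.709). The 2 genes had the fewest reads of the 10 and so the widest intervals relative to their ratios, from 1622 reads of lsc1 and 2867 of lsc2 in the wild type.

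Fumarase, which hydrates fumarate to malate, and malate dehydrogenase, which returns oxaloacetate, close the cycle. The fumarase gene fum1 (SPCC18.18c, chromosome III) stood at 220.2 RPKM in the wild type and 129.8 RPKM in the deletion, a ratio of 0.589 (0.565 to 0.615), and 2.19% of tested genes had a lower log2 difference. The malate dehydrogenase gene mdh1 (SPCC306.08c, chromosome III) stood at 208.2 RPKM in the wild type and 146.7 RPKM in the deletion, a ratio of 0.705 (0.670 to 0.742). Both were lower in the deletion by more than kgd1 or lsc1.

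**Figure D2:**
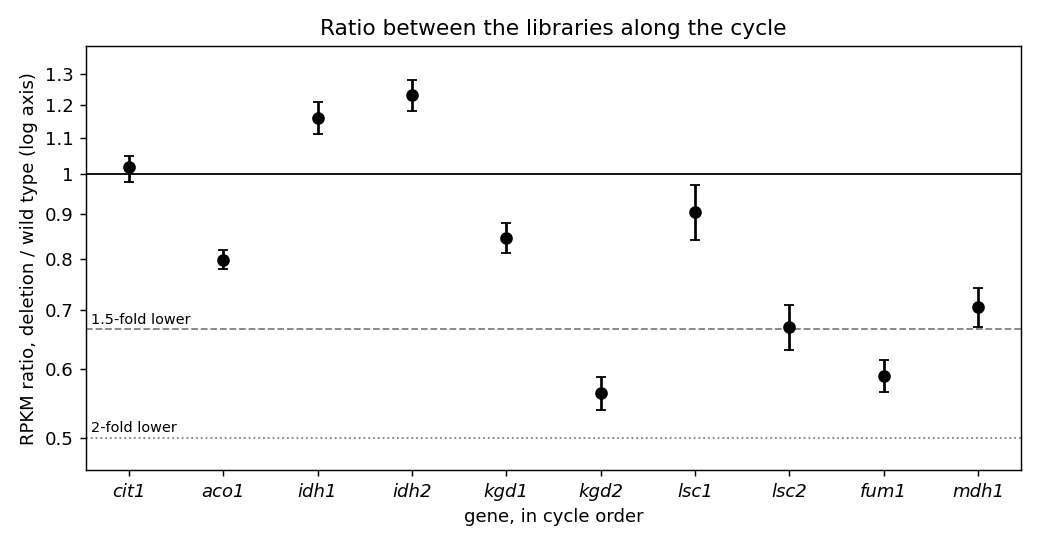
Ratio of RPKM, deletion over wild type, of the 10 cycle genes in the order of the reactions, on a log axis; bars are exact 95% intervals from the reads and cover counting error only, and the dashed and dotted lines mark 1.5-fold and 2-fold lower. The points of cit1, idh1 and idh2 lie at 1.02, 1.16 and 1.23, all 6 points from kgd1 to mdh1 lie below 1, and only kgd2 and fum1 lie below the 1.5-fold line.

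Along the cycle the genes can be divided into a stretch before and a stretch after 2-oxoglutarate, a division drawn after the values were seen and so given without a test. In the 4 genes from cit1 to idh2 the log2 differences ran from −0.32 to 0.30 with a median of 0.12, and the summed reads stood at 0.960 of the wild type (0.944 to 0.977). Of the 27229 wild-type reads of these 4 genes 13628 were of aco1, the only one of them with a ratio below 1. In the 6 genes from kgd1 to mdh1 the log2 differences ran from −0.82 to −0.14 with a median of −0.54. All 6 were negative, beside 2141 of 4986 over all tested genes, and the summed reads stood at 0.685 (0.671 to 0.698). The ranges of the 2 stretches overlap, since aco1 at −0.32 lies below kgd1 at −0.24 and lsc1 at −0.14. Intervals that cover counting error only exclude 1 for many genes at this depth. The interval lay wholly below 1 for 7 of the 10 cycle genes, beside 29.7% of all tested genes, and wholly above 1 for 2 of the 10, beside 40.7%.

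The order of levels differed between the libraries. In the wild type aco1 was followed by kgd2, cit1, fum1, idh1, mdh1, idh2, lsc2, kgd1 and lsc1, a 3.53-fold range with a median of 212 RPKM. Of these neighbours, fum1 and idh1, idh1 and mdh1, and mdh1 and idh2 were not separated by their counting intervals. In the deletion the 4 genes from cit1 to idh2 took the top 4 places, in the order aco1, idh2, idh1 and cit1. The next gene, mdh1, was below them: the level of cit1 was 1.59 times that of mdh1 (1.51 to 1.66). The division at 2-oxoglutarate was drawn after these same values were seen, so this order is not a separate result. Below mdh1 came kgd2, fum1, kgd1, lsc2 and lsc1, over a 3.12-fold range in all with a median of 144 RPKM. In that library idh2 and idh1, mdh1 and kgd2, kgd1 and lsc2, and lsc2 and lsc1 were not separated. Among all 5076 genes of the table, kgd2 ranked 667th from the top in the wild type and 1245th in the deletion, while idh2 went from 834th to 635th.

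**Figure D3:**
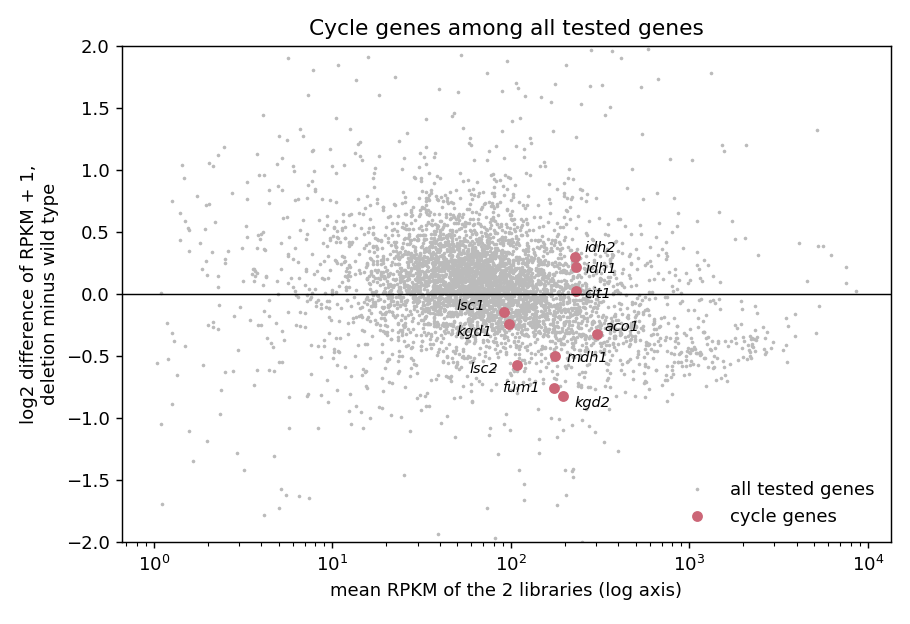
Log2 difference of RPKM plus 1, deletion minus wild type, against the mean RPKM of the 2 libraries on a log axis, with each tested gene as a grey point and the 10 cycle genes in red; 39 genes beyond 2 in either direction are not drawn. The cycle genes sit at similar means, 90.9 to 303 RPKM, and spread from −0.82 (kgd2) to 0.30 (idh2).

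Genes for subunits of 1 enzyme did not all keep their proportions. Per length, idh1 stood at 1.05 of idh2 in the wild type (0.99977 to 1.09) and at 0.986 in the deletion (0.947 to 1.03), and the change between the libraries, 0.944-fold (0.889 to 1.0025), was not detectable at this depth. The level of kgd1 was 0.419 of that of kgd2 in the wild type (0.404 to 0.435) and 0.629 in the deletion (0.601 to 0.658), a change of 1.5-fold (1.42 to 1.59). The level of lsc1 was 0.740 of that of lsc2 in the wild type (0.695 to 0.786) and 0.99969 in the deletion (0.933 to 1.07), a change of 1.35-fold (1.23 to 1.48). In both of these pairs the more abundant subunit of the wild type was the one that was lower by more. The wild-type level enters both parts of that statement, so with 1 library a group it is description only.

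The third subunit of the 2-oxoglutarate dehydrogenase complex, dihydrolipoamide dehydrogenase, is shared with pyruvate dehydrogenase and comes from dld1. It stood at 436.6 RPKM in the wild type and 486.5 RPKM in the deletion, a ratio of 1.11 (1.09 to 1.14). The level of kgd2 thus went from 0.577 of dld1 (0.559 to 0.596) to 0.292 (0.280 to 0.303), and that of kgd1 from 0.242 (0.234 to 0.25) to 0.183 (0.177 to 0.190). The pyruvate dehydrogenase gene that corresponds to kgd2 is lat1, for the acetyltransferase. It was at 0.867 of the wild-type level (0.843 to 0.892), and kgd2 went from 0.593 of lat1 to 0.385, a change of 0.650-fold (0.617 to 0.684).

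2-Oxoglutarate is also made by the NADP-dependent isocitrate dehydrogenase, the product of idp1. The gene idp1 stood at 350.0 RPKM in the wild type and 208.2 RPKM in the deletion, a ratio of 0.595 (0.574 to 0.617), opposite in direction to idh1 and idh2. In the wild type idh1 was at 0.615 of idp1 per length (0.592 to 0.639) and in the deletion at 1.2 (1.15 to 1.25), a change of 1.95-fold (1.85 to 2.07). For idh2 against idp1 the change was 2.07-fold (1.96 to 2.19), so the order of the NAD and NADP enzymes' genes was reversed between the libraries. The pairs with idp1 were not planned, unlike the subunit pairs, and are given as description only.

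**Figure D4:**
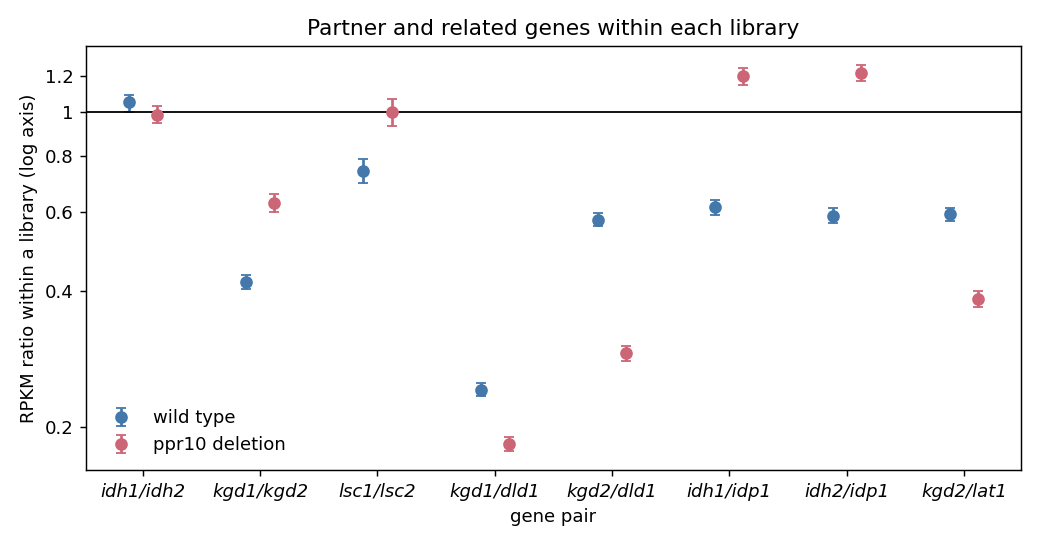
Ratio of RPKM of the first named gene to the second within each library, on a log axis, for subunits of 1 enzyme and for related enzymes; bars are exact 95% intervals from the reads and cover counting error only. The pair idh1/idh2 stays near 1 in both libraries, kgd1/kgd2 goes from 0.419 to 0.629, and idh1/idp1 goes from 0.615 to 1.2.

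No gene that feeds pyruvate into the cycle passed the 1.5-fold rule. Of 8 genes for pyruvate dehydrogenase, pyruvate carboxylase and the mitochondrial pyruvate carrier, none was lower, beside 4.49% of all tested genes, and none was higher, beside 7.94%. Of their log2 differences 7 of 8 were negative, beside 2141 of 4986 over all tested genes, and the median was −0.24. The largest were those of pda1, the alpha subunit of the decarboxylase of pyruvate dehydrogenase (ratio 0.756, 0.738 to 0.775), of pdx1, annotated with the same complex (0.760, 0.728 to 0.793), and of the carrier gene mpc2, whose ratio of 0.813 (0.641 to 1.03) rests on 164 and 132 reads and includes 1. The only positive member was dld1.

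The 5 genes of 2-oxoglutarate and glutamate metabolism, idp1 among them, did not share a direction. By the 1.5-fold rule glt1 and idp1 were lower, 2 of 5 beside 4.49% of all tested genes, gdh2 was higher, 1 of 5 beside 7.94%, and the other 2 passed neither way; the median was −0.03, or 0.02 when rescaled to TPM (RPKM brought to 1 total in both libraries). The gene of glutamate synthase, which uses 2-oxoglutarate, is glt1, and it stood at 78.81 RPKM in the wild type and 42.84 RPKM in the deletion (ratio 0.544, 0.524 to 0.563). The gene of the NAD-dependent glutamate dehydrogenase, gdh2, which in fungi works mainly in glutamate breakdown, stood at 9.482 and 15.34 RPKM (1.62, 1.45 to 1.80), and did not pass with a pseudocount of 5 RPKM. By contrast the NADP-dependent, biosynthetic glutamate dehydrogenase gene gdh1 had a ratio of 0.982 (0.958 to 1.01).

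Fungal lysine synthesis starts from 2-oxoglutarate and repeats the chemistry of the early cycle with its own enzymes. Of its 6 genes, 1 was lower by the 1.5-fold rule, beside 4.49% of all tested genes, and all 6 differences were negative, beside 2141 of 4986; the median was −0.25. The 1 was lys2, the homoaconitase gene, at 308.3 RPKM in the wild type and 185.1 RPKM in the deletion (ratio 0.600, 0.582 to 0.619). Another list held 5 genes of enzymes related in sequence to those of the cycle. Of these, lys2 and lys12 are also in the lysine list and lat1 in that of pyruvate entry. By that rule 2 of the 5 were lower, beside 4.49% of all tested genes, and none was higher, beside 7.94%, with a median of −0.35. Beside lys2 the other one was leu2, for isopropylmalate dehydratase of leucine synthesis, an iron-sulphur enzyme of the aconitase family, at 436.3 and 280.2 RPKM (0.642, 0.627 to 0.658).

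The lists of genes that equip cycle enzymes with their cofactors had medians close to that of all genes, 0.05, with single members farther away. Aconitase depends on mitochondrial iron-sulphur cluster assembly. Of 14 genes of that assembly none was lower by the 1.5-fold rule, beside 4.49% of all tested genes, and none was higher, beside 7.94%. Of their differences 7 were positive and 7 negative, beside 2845 and 2141 over the 4986 tested genes. Their median was 0.03, or −0.02 after scaling to the median gene. The scaffold gene isu1 was nearest to the limit and passed it when rescaled to TPM, with 664 reads in the wild type against 978 (ratio 1.49, 1.35 to 1.64). The other named members were isd11 (ratio 0.818, 0.711 to 0.941), a partner of the cysteine desulfurase, and jac1, a co-chaperone of cluster transfer (0.854, 0.746 to 0.977). Of 3 matched genes of lipoate synthesis and attachment, which serve kgd2 and lat1, none passed the rule, with a median of 0.08, or −0.12 over those with a mean of at least 50 RPKM: lip5, for lipoate synthase, had a ratio of 0.742 (0.696 to 0.790), lip2 one of 1.06 (0.923 to 1.22) and aim22 one of 1.15 (1.05 to 1.26).

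**Figure D5:**
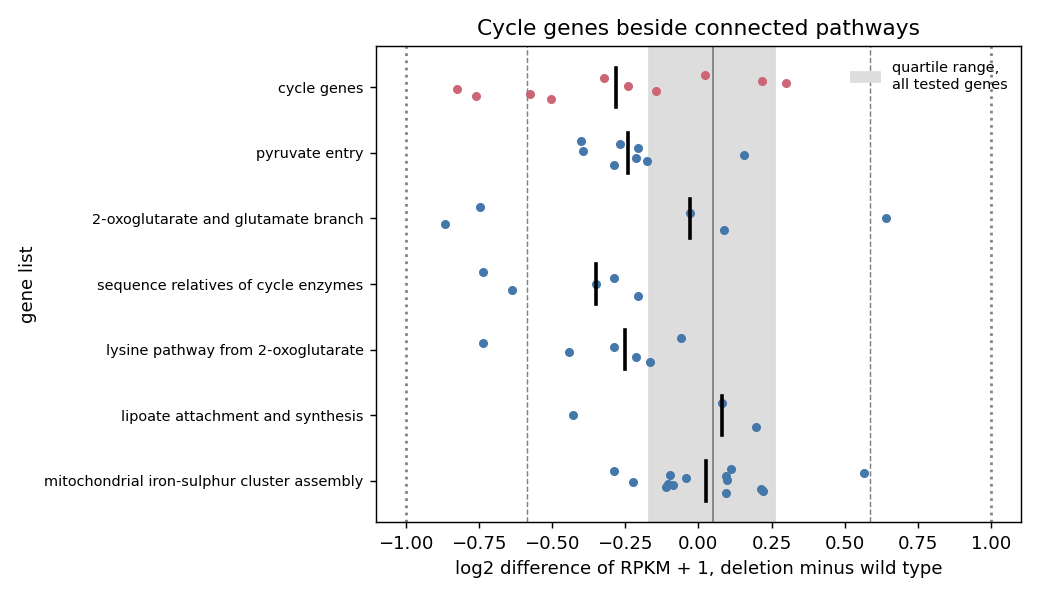
Log2 difference of RPKM plus 1, deletion minus wild type, of each gene in the cycle and in 6 connected lists, with the median of each list as a black bar; the grey band spans the quartiles of all tested genes (−0.17 to 0.26), and dashed and dotted lines mark 1.5-fold and 2-fold. The cycle genes spread more widely than the genes of pyruvate entry, with medians of −0.28 and −0.24, while the cofactor lists centre near 0.

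Features of the genes that the choice did not use bear on how far these values can be read. The 10 genes lie on all 3 chromosomes, 4 on I, 3 on II and 3 on III, and the deposited coverage score, given in percent, was above 99 for all 10 in both libraries. The listed length equalled the coding length in the reference annotation for all 10. None of the 10 has a near-identical copy, a match of at least 90% identity over at least 100 bases, among annotated coding sequences. In that annotation 8 of the 10, all but cit1 and idh1, are overlapped by a gene on the opposite strand, 7 of them by a noncoding RNA. The sources used here do not say whether reads were counted by strand, so reads of such a partner cannot be told apart from those of the cycle gene.

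Of the overlapping genes the table lists 2. The annotated transcript region of plh1 runs over 1367 bases of kgd2 between its first and last coding base, introns included, and plh1 itself stood at 67.23 RPKM in the wild type and 63.81 RPKM in the deletion (ratio 0.949, 0.893 to 1.01). The gene rmn1 overlaps idh2 by 60 bases and had a ratio of 0.880 (0.842 to 0.921), opposite in direction to idh2. The part of these overlaps in the values of kgd2 and idh2 was not tested.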

How the data were processed

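One deposited table held both libraries, which were assigned by column names and labels. Per the file headers, the authors deposited a gene length and, per library, the count of uniquely mapped reads, a coverage score in percent and RPKM. The RPKM values, made by the authors, were recomputed from count, length and column total to within 4.99e-07. Per the submitters' processing notes, Bowtie2 2.2.3, TopHat2 2.0.12 and the build ASM294v2 were used; the series' description also mentions BWA, ANOVA, TopHat and Cufflinks. The sources used here do not say which tool made the counts, with what strand setting or annotation release. A dash was read as 0.

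With 1 library a group, no count model and no test was run, although counts were found beside the RPKM values. Ratios of reads scaled by library size carry exact 95% intervals, and changes of a within-library ratio carry conditional exact odds-ratio intervals (Python 3.11.15, scipy 1.17.1). PCR reads are not independent molecules. The 10 cycle genes and the connected lists were chosen with earlier results of these data known, as was the 1.5-fold rule. All cycle genes are named; of each list, the genes past 1.5-fold, or otherwise the 3 with the largest differences whose mean RPKM was 5 or more. Other genes named (dld1, lat1, gdh1, plh1, rmn1) are partners, relatives, branch enzymes or overlapping genes, singled out after their values were seen. The plan held only the pairs of idh1 with idh2, kgd1 with kgd2 and lsc1 with lsc2. Pairs with dld1, lat1 and idp1 were added to it. Symbols came from the ASM294v3 annotation, a later build, so no coordinates are printed; 5048 of 5076 identifiers matched by locus tag. The listed symbols lip3 and yfh1 matched none. The list of sequence relatives was analysed without 1 gene first placed in it, which is not reported here. Copies were searched with BLAST+ 2.17.0. The call function was tested on simulated data at the 2-fold rule only. The intervals of read ratios were tested on simulated Poisson counts, which hold counting error alone and no spread between cultures. The 1.5-fold rule and the odds-ratio intervals were not tested in this way.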

Additional observations from a re-analysis of the deposited data

How the results depend on the processing

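The alternatives were a pseudocount of 0.1 or 5 RPKM, no filter or one at a mean of 5 RPKM, rescaling to TPM, scaling to the median gene, and library sizes without the 50 most abundant genes; a filter at 50 RPKM was chosen after seeing the data. The median of the cycle genes ran from −0.331, after scaling to the median gene, to −0.238, when rescaled to TPM, and aco1 from −0.372 to −0.28 under the same 2. The subunit pairs stayed within their counting intervals. Scaling moves both genes of a pair alike and no filter tried removed a cycle gene, so only the pseudocounts could move the pairs. The count of cycle genes lower by 2-fold stayed at 0. That lower by 1.5-fold was 3, with lsc2, after scaling to the median gene. Of all tested genes 5.68% were lower by 1.5-fold under that scaling, against 4.49% as deposited. Scaling moves all log2 differences alike. Scaling to the median gene turned cit1 to −0.026 and the iron-sulphur assembly median to −0.024, and gave medians of −0.291 for pyruvate entry, −0.40 for sequence relatives and −0.30 for the lysine pathway. Rescaling to TPM gave −0.198, −0.307 and −0.207 for the same 3 lists and 0.016 for the glutamate branch, and put 1 iron-sulphur assembly gene, isu1, past 1.5-fold higher. With a pseudocount of 5 RPKM, or at 50 RPKM, where gdh2 is filtered out, 0 genes of the glutamate branch were higher. At 50 RPKM the glutamate branch median was −0.387 and that of the lipoate genes −0.115, because fewer genes remained. No paired analysis was possible because neither group has a second library, so none could be left out either. Depth limits genes whose ratio intervals include 1, among them cit1, gdh1, mpc2 and lip2.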
